A study of Mus musculus with 34 samples.

Results

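Receptor genes for glutamate, GABA, glycine, acetylcholine, serotonin, dopamine, noradrenaline and opioid peptides were followed in the hippocampus and neocortex of young mice 7 days after injections of kainate, nicotine or saline. AMPA, kainate and nicotinic receptors were left out. The members were the probe sets whose only gene symbol on the platform begins with the letters of these receptor families, with 1 probe set per gene, the one with the highest mean log2(signal + 16) over all arrays. The rule found 42 genes among 8251 named genes. Of these, 39 encode receptors or receptor subunits. The other 3, Htra1, Htra2 and Htra3, share the letters Htr but encode HtrA serine proteases, which cut proteins and bind no transmitter, and they are described apart at the end. The 39 receptor genes were 4 NMDA receptor subunits (Grin2a to Grin2d), 1 metabotropic glutamate receptor (Grm8), 10 subunits of GABA-A type chloride channels, 1 GABA-B receptor subunit (Gabbr1), 1 glycine receptor subunit (Glra1), 2 muscarinic, 11 serotonin, 3 dopamine, 2 adrenergic and 4 opioid receptor genes. No adenosine or beta-adrenergic receptor gene was found by the rule among the probe sets with a single symbol.

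Fast inhibition in the forebrain runs through GABA-A receptors, chloride channels assembled from several subunits, whose composition sets where on the cell they sit and how they respond to GABA. NMDA receptors are glutamate-gated cation channels that pass calcium, and their GluN2 subunits (genes Grin2a to Grin2d) set their kinetics. Most other members are G-protein-coupled receptors, among them the GABA-B receptor, which dampens transmitter release and opens potassium channels. Seizures provoked by kainate can kill neurons and activate glia, chiefly in the hippocampus. The arrays used here do not measure neuron death.

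Male mice received 3 intraperitoneal injections on postnatal day 23, 2 h apart, of kainate at 15 mg/kg, nicotine at 10 mg/kg or saline, and survivors were killed on postnatal day 30. Kainate activates kainate and AMPA glutamate receptors, and nicotine activates nicotinic acetylcholine receptors. There were 5 kainate, 6 nicotine and 6 saline mice, and each region gave 1 Affymetrix array per mouse, 34 arrays in 6 groups. The strain and genotype were not given in the sources used here, no group carries a stated genetic change, and animals that died after injection were not measured.

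The values were MAS5 signals, linear intensities scaled by the authors to a common mean on every array. Array medians in the hippocampus lay between 403.35 and 438.5 with kainate and between 395.2 and 434.55 with nicotine, all above the saline arrays (381.05 to 391.2). The tissue labels were set against marker lists: 4 of 4 tested markers of CA pyramidal cells were higher in saline hippocampus than in saline neocortex, with summed signals of 9091 to 10900 against 2894 to 4212. In the hippocampus 10 of 10 tested microglia markers and 3 of 7 tested astrocyte markers were higher with kainate than with saline. In all of what follows a lower signal in tissue can come from fewer cells of a type or from less RNA per cell. As every array was scaled to a common mean, it can also come from more RNA of other cells. These cannot be told apart here.

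Fold changes were differences of mean log2(signal + 16), which understate changes of dim genes, and they were tested with limma over 8695 probe sets whose mean signal reached the 30th percentile. A gene was called when its Benjamini-Hochberg adjusted p over those probe sets was under 0.05. Of the 39 receptor genes, 27 passed that level in the hippocampus, 29 in the neocortex and 28 in fits over both regions, where the level was a signal of 131, 128 and 130. The genes below it in every fit were Gabra6, Gabrr1 and Gabrr2 of the GABA-A type, Chrm4, Drd3, Htr1f, Htr2b, Htr2c, Oprd1 and Oprm1. Oprk1 was tested only in the neocortex, and Adra1b, the alpha-1B adrenergic receptor, was tested in the neocortex and in the fits over both regions. Adra1b passed there through its neocortical level, since its mean in each hippocampal group (102.2 to 146.9) was near or below 130. Signals of different probe sets were not set against each other, because probe sets differ in how brightly they bind.

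**Figure D1:**
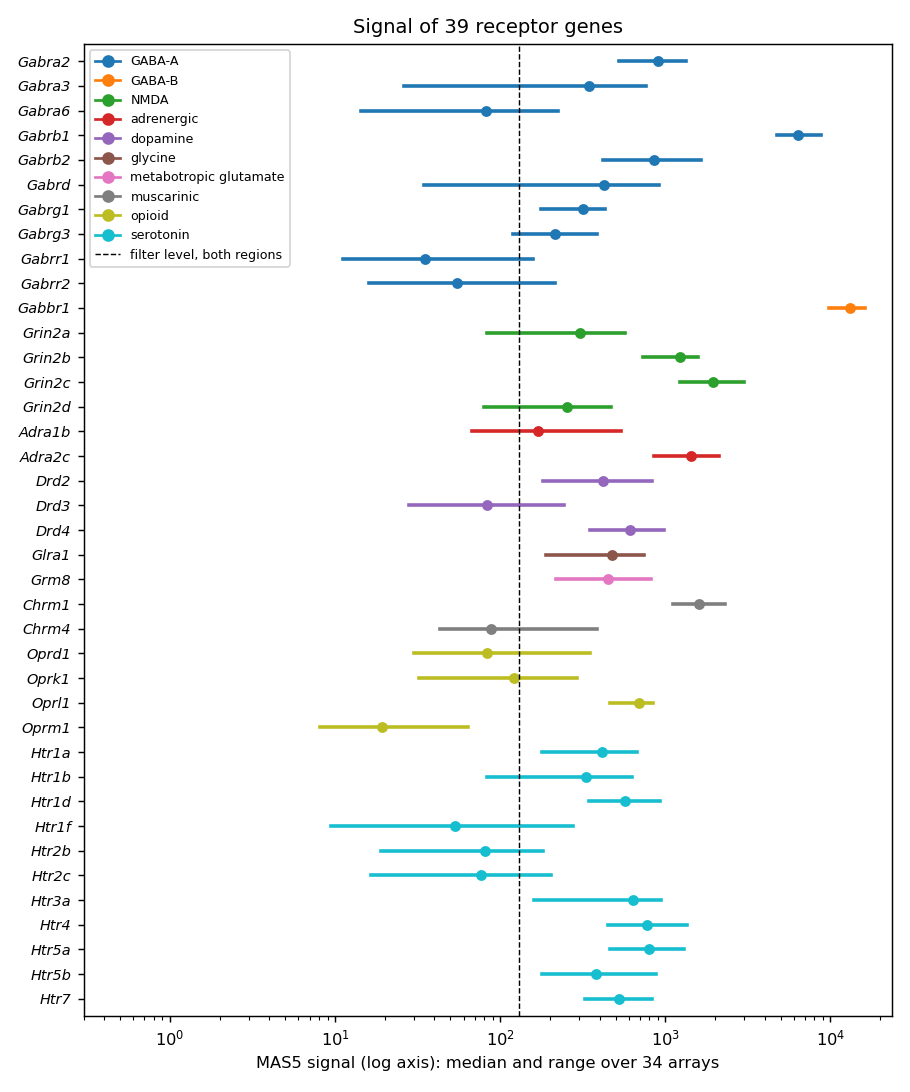
MAS5 signal of each of the 39 receptor genes (log axis), with a dot for the median and a line from the lowest to the highest of 34 arrays, coloured by family. The dashed line marks the filter of the fits over both regions, and the medians of 11 genes, including Oprm1 and Gabrr1, lie left of it.

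The GABA-B receptor subunit Gabbr1 was the 1 receptor gene of 27 that passed the test for kainate against saline in the hippocampus. Gabbr1 encodes the subunit that binds GABA and that pairs with a partner subunit to reach the cell surface. Its signal was 10808.3, 12106.8, 10448.8, 9860.5 and 10385 on the kainate arrays, against 12229, 13871.3, 16251.1, 12903.5, 16207.7 and 15153.1 on the saline arrays. Every kainate array lay below every saline array, though the highest kainate array was close to the lowest saline array. Gabbr1 averaged 10720 ± 845 with kainate (SD, n = 5) and 14440 ± 1700 with saline (SD, n = 6). It fell by 0.42 on the log2 scale (SE 0.089, 95% confidence interval -0.61 to -0.23, a fold of 1.34, limma adjusted p = 0.00742).

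**Figure D2:**
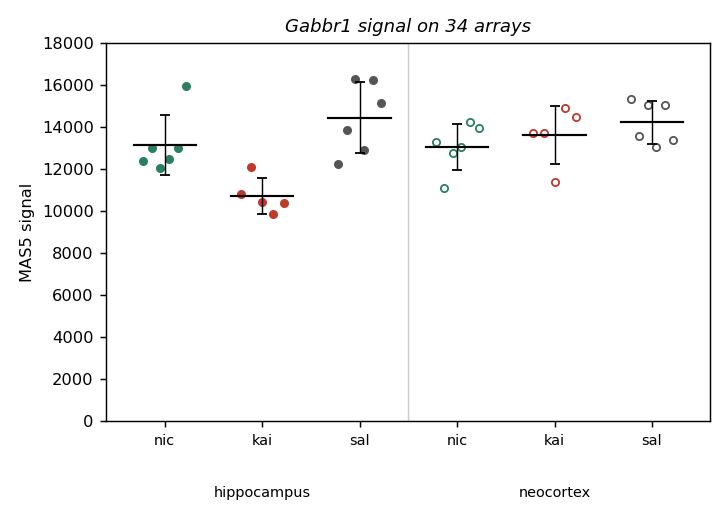
MAS5 signal of Gabbr1 on each of 34 arrays, by region and treatment (nic, nicotine; kai, kainate; sal, saline), with a bar for the mean and whiskers of 1 SD. The 5 hippocampal kainate arrays, at 9860.5 to 12106.8, all lie below the 6 hippocampal saline arrays.

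The share of receptor genes called by kainate in the hippocampus was close to that of all probe sets tested. It was 1 of 27, or 3.7%, where 2.79% of all 8695 probe sets were called, 1.84% higher and 0.955% lower with kainate. Groups did not overlap for the same 1 of 27, against 3.5% of all probe sets. The median log2 fold change was 0.07 over the 27 receptor genes and 0.01 over all probe sets tested. The calls over all probe sets were 160 higher and 83 lower with kainate on the authors' scale. When each array was centred on its median they were 130 higher and 313 lower, the median over all probe sets was -0.10, and Gabbr1 stood at -0.54 (adjusted p = 0.00258 in limma).

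Markers of several cell types moved with Gabbr1 on the same arrays. Summed signals of 11 microglia markers ran from 45190 to 72170 with kainate and from 16890 to 19790 with saline, and those of 8 astrocyte markers from 61510 to 71270 with kainate and from 39240 to 43970 with saline. Of 10 interneuron markers 2 fell, Sst by 0.77 and Slc32a1 by 0.43 on the log2 scale (limma adjusted p = 1.16e-05 and 0.0273), with sums of 26860 to 30680 with kainate and 32590 to 36060 with saline. Of 5 excitatory neuron markers 0 were called, though 3 had an unadjusted p under 0.05 in limma, against 14.2% of all probe sets. The sums of these 5 were 17480 to 19870 with kainate and 18210 to 27120 with saline. Of 4 dentate granule cell markers 1 fell, Calb1 by 0.63 (limma adjusted p = 0.00048), and the sums of the 4 did not overlap, at 2536 to 3394 with kainate and 3588 to 4446 with saline. Of 4 CA pyramidal cell markers 1 fell, Pkp2 by 0.69 (limma adjusted p = 0.0156), with sums of 6930 to 9175 with kainate and 9091 to 10900 with saline. None of 4 tested oligodendrocyte markers was called by limma, and 0 had an unadjusted p under 0.05. The part of these cell types in the Gabbr1 result was not tested. Arrays were also grouped into 3 clusters by the signals of the control probe sets. Within them Gabbr1 differed by -0.27, -0.43 and -0.59 in log2 signal, between 1 to 3 kainate arrays and 2 saline arrays. The direction within clusters was fixed in advance, because every kainate array lay below every saline array. These differences therefore do not test the part of the clusters in the Gabbr1 result.

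In the neocortex Gabbr1 had a signal of 13691.7, 13683.7, 11356.4, 14875 and 14462.1 with kainate, against 13027.5 to 15334.6 with a median of 14300.7 with saline. These groups overlapped, and the difference was -0.07 on the log2 scale with a 95% interval of -0.24 to 0.11 (limma adjusted p = 0.943). With nicotine, the hippocampal signal ran from 12037.4 to 15921.5 with a median of 12733.4, a difference of -0.13 from saline (adjusted p = 0.87 in limma), and the neocortical difference was -0.13 (adjusted p = 0.603). The difference between the kainate effects in hippocampus and neocortex was -0.36 (SE 0.119, interval -0.60 to -0.11) and did not pass over all probe sets (unadjusted p = 0.00511, limma adjusted p = 0.241), so the hippocampal change is not shown to be particular to that region.

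The 250 bases upstream of the RefSeq start of Gabbr1 are shown because this gene carries the drug result. They lie on the plus strand of GRCm38.p6 at chr17:37045716-37045965, and capitals mark the GC box letters GGGCGG.
Gabbr1 upstream: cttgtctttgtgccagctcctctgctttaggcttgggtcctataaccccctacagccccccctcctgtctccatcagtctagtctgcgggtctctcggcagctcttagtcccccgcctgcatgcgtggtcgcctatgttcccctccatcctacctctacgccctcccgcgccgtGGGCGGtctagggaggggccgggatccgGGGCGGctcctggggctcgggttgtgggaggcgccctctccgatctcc
The window has 66% G and C, against a median of 52.4% over 32851 RefSeq windows. It holds 2 GC boxes, counted over both strands, and 0 copies of the cyclic AMP response half-site TGACG, also searched on both strands. Among 27025 genes with a window 35.4% held a GC box and 19.8% the half-site in at least 1 window, and of the 30 receptor genes with a window 14 (46.7%) and 3 (10%) did. These letters are a description of the window and say nothing of which factors bind there.

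No other receptor gene passed the test for kainate in the hippocampus, and besides Gabbr1 only Gabrg1 had an unadjusted p under 0.05 in limma. Over all probe sets tested 14.2% had such a p. Of the 7 tested GABA-A subunits 0 were called, with a median log2 fold change of 0.12 and a range from -0.40 for Gabrd to 0.48 for Gabrg1, which encodes the gamma-1 subunit. Gabrg1 had a signal of 399, 279.5, 383.9, 323.7 and 317.2 with kainate, against 186.4 to 328.9 with a median of 217.8 with saline. The kainate arrays lay mostly above the saline arrays but overlapped them, at an adjusted p of 0.204 (limma, SE 0.184). Of the 4 NMDA receptor subunits 0 were called, with a range from -0.33 for Grin2d to 0.07 for Grin2c.

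The glycine receptor subunit Glra1, of the inhibitory channel best known from the spinal cord and brainstem, had the next largest difference with kainate in the hippocampus. Its signal was 564.6, 466.1, 189.4, 682.7 and 502.5 with kainate, against 206.6 to 512.1 with a median of 299.6 with saline. The groups overlapped widely, 1 kainate array being below every saline array, and the log2 fold change was 0.47 (SE 0.274, limma adjusted p = 0.473). Within control-probe clusters it was 1.05, -0.01 and 0.69.

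The remaining families gave 0 calls with kainate in the hippocampus. The 8 tested serotonin receptor genes ranged from -0.44 for Htr5b (adjusted p = 0.39 in limma) to 0.23 for Htr3a, the serotonin-gated channel subunit. Grm8, a presynaptic glutamate autoreceptor, stood at 0.30, the nociceptin receptor Oprl1 at 0.17, the dopamine receptors Drd2 and Drd4 at 0.13 each, the alpha-2C adrenergic receptor Adra2c at 0.10 and the muscarinic receptor Chrm1 at -0.07. Among the genes too dim to be tested, the kappa opioid receptor Oprk1 had a signal of 100.1, 157.8, 131.6, 278.6 and 100.6 with kainate, against 32.4 to 87.8 with a median of 61.65 with saline. These groups did not overlap, but the gene was singled out after its values were seen and its saline signal lies below the filter, so no fold is given. The nicotine arrays of hippocampus, at 53.6 to 200.6 with a median of 149.8, also lay mostly above the saline arrays. The saline arrays of hippocampus all lay below those of neocortex, at 90.1 to 223.9. A higher Oprk1 signal is thus not shown to be particular to kainate.

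With kainate in the neocortex 0 of 29 receptor genes were called by limma, where 0.0115% of all probe sets were called. An unadjusted p under 0.05 was held by 1 receptor gene and by 5.57% of all probe sets. No receptor gene had groups that did not overlap, against 0.564% of all probe sets. The gene with the unadjusted p under 0.05 was Grin2c, the GluN2C subunit, with a signal of 1220, 1339.1, 1519.5, 2323.8 and 1697.4 with kainate, against 1780 to 2203.4 with a median of 2018.1 with saline. The highest kainate array lay above every saline array, and the log2 fold change was -0.34 (SE 0.145, limma adjusted p = 0.874). The largest differences were those of Oprk1 at 0.60 (SE 0.331) and of the NMDA subunit Grin2d at 0.54 (SE 0.383), both with an adjusted p of 0.903 in limma. Oprk1 passed the filter of 128 through its kainate level, so its difference is part of what let it be tested. Its mean was 198.6 with kainate, against 127.4 with saline and 104.7 with nicotine.

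Oprk1 in the neocortex had a signal of 203.3, 192.1, 129.7, 293.4 and 174.3 with kainate, against 90.1 to 223.9 with a median of 110.15 with saline, and 1 saline array lay above 4 of the kainate arrays. Grin2d had a signal of 184.5 to 403.6 with a median of 292.4 with kainate, against 96 to 467.2 with a median of 174.35 with saline, so the saline arrays spanned the whole kainate range. The median log2 fold change over the 29 receptor genes was -0.01, against 0.01 over all probe sets tested.

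With nicotine in the hippocampus 0 of 27 receptor genes were called by limma, where 0% of all probe sets were called. An unadjusted p under 0.05 was held by 2 receptor genes and by 5.8% of all probe sets. No receptor gene had groups that did not overlap, against 0.15% of all probe sets. The largest difference was that of Glra1, with a signal of 438.4 to 737 and a median of 542.8 with nicotine, against 206.6 to 512.1 and a median of 299.6 with saline. Of the saline arrays 2 lay within the nicotine range and 4 below it. The log2 fold change was 0.78 (SE 0.261, unadjusted p = 0.00718, limma adjusted p = 0.851). The next was Gabra3, the alpha-3 subunit of GABA-A receptors, at 0.48 (SE 0.517, adjusted p = 0.925 in limma), with signals of 65.4 to 318.6 and a median of 232.8 with nicotine and of 37.1 to 381.7 and a median of 143.65 with saline.

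The other gene with an unadjusted p under 0.05 was Gabrg1 at 0.38 (SE 0.175, limma adjusted p = 0.851). Over all 27 receptor genes 22 differences were above 0 and 5 below, with a median of 0.10 against 0.01 over all probe sets tested. The share of all probe sets above 0 was not counted. The 27 genes were measured on the same arrays, so their signs are not independent and a joint rise is not shown. Both drugs were compared with the same 6 saline arrays, so a low or high saline value enters both comparisons. Under median centring the median over all probe sets in this comparison was -0.05.

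With nicotine in the neocortex 0 of 29 receptor genes were called by limma, where 0% of all probe sets were called. An unadjusted p under 0.05 was held by 9.6% of all probe sets and by 1 receptor gene. That gene was Oprl1, the receptor for the opioid-like peptide nociceptin, with a signal of 716.6 to 816.1 and a median of 786.6 with nicotine, against 556.5 to 709.1 and a median of 634.4 with saline. All 6 nicotine arrays lay above all 6 saline arrays, by a narrow gap. Oprl1 was 1 of 29 receptor genes (3.45%) with groups that did not overlap, against 0.564% of all probe sets, and it was singled out after its values were seen. Its log2 fold change was 0.30 (SE 0.125) and its limma adjusted p was 0.481.

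The largest nicotine differences in the neocortex were those of Adra1b at -0.52 (SE 0.3, limma adjusted p = 0.589) and of Grin2d at 0.48 (SE 0.366, limma adjusted p = 0.677). Adra1b had a signal of 123.4 to 364.3 with a median of 279.55 with nicotine, against 292.3 to 486.7 with a median of 367.55 with saline. Its arrays overlapped, with 1 nicotine array far below the rest. Grin2d had signals of 87.1 to 471.7 with nicotine and 96 to 467.2 with saline, nearly the same range.

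**Figure D3:**
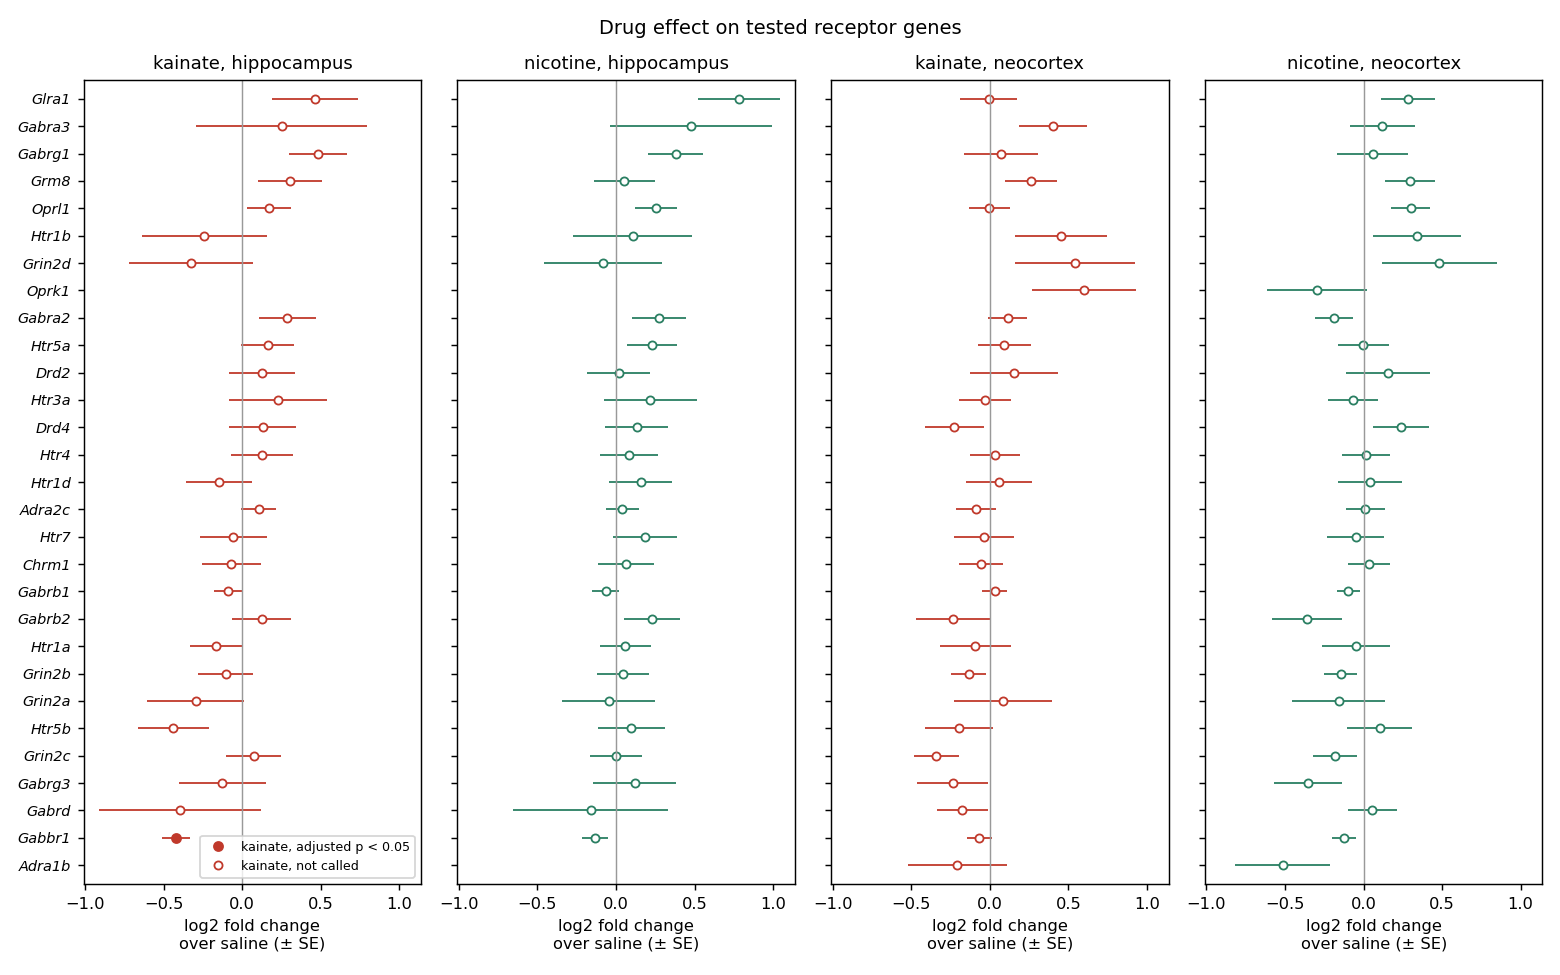
Log2 fold change of each tested receptor gene for kainate and nicotine over saline, with whiskers of 1 SE, in hippocampus (left pair of panels) and neocortex (right pair). Filled points mark an adjusted p under 0.05 in limma, and the one filled point is Gabbr1 with kainate in the hippocampus at -0.42.

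More receptor genes were called between the regions than with either drug. Hippocampus over neocortex, 7 of 28 tested receptor genes were called with kainate (25%), 9 with nicotine (32.1%) and 8 with saline (28.6%). These counts stand against 13%, 9.61% and 10.5% of all probe sets called in the same fits. An unadjusted p under 0.05 in limma was held by 10, 10 and 9 of the 28, against 24.1%, 19.4% and 21.7% of all probe sets. With kainate 2 were higher and 5 lower in the hippocampus (all probe sets 6.81% and 6.22%), with nicotine 5 and 4 (4.69% and 4.92%), and with saline 3 and 5 (5.36% and 5.19%). Groups did not overlap for 5 receptor genes with kainate, 4 with nicotine and 4 with saline, against 9.99%, 5.98% and 6.21% of all probe sets. The 3 comparisons take their differences from different arrays, but they come from a single fit over the arrays of both regions and all treatments. That fit gave them a shared filter and a shared variance for each gene, so their calls are not independent of each other. In all of them 6 receptor genes were called, Gabrb1 and Adra2c higher and Gabrd, Gabra3, Adra1b and Grm8 lower in the hippocampus. Adra1b passed the filter only through its neocortical level, so its difference is part of what let it be tested. Without it 6 of 27 were called with kainate, 8 with nicotine and 7 with saline, and 5 in all of them. With it, another was called in 2 and 4 more in 1, while 17 tested genes were called in 0 of the 3. The share of all probe sets called in all 3 treatments, or in none, was not counted. Whether these counts over the 3 treatments are unusual for the receptor genes is therefore not shown. Both regions came from the same mice but the labels do not pair the arrays, so the fits took the arrays as independent. The control-probe clusters were spread unevenly over the regions. Cluster 1 held 4 kainate, 5 nicotine and 5 saline arrays of neocortex, against 1, 1 and 2 of hippocampus, and cluster 3 held 0 neocortical arrays. Calls lost with the clusters as a block are given with their genes. The part of the clusters in the other regional calls was not tested further.

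Among GABA-A subunits the delta subunit gene Gabrd was lower in the hippocampus in all 3 treatments. The delta subunit replaces a gamma subunit in receptors outside the synapse that carry tonic inhibition. With kainate Gabrd had a signal of 76.3, 224.7, 391.4, 137.4 and 75 in hippocampus, against 683.7, 497.2, 657.3, 790.9 and 465.3 in neocortex. With nicotine it was 34.5 to 362.5 with a median of 297.15 in hippocampus, against 558.9 to 917.9 with a median of 729.75 in neocortex. With saline it was 80.8 to 273.1 with a median of 229.85 in hippocampus, against 560.1 to 836.4 with a median of 690.2 in neocortex. In each treatment every hippocampal array lay below every neocortical array, with wide spread among the hippocampal arrays. The log2 fold changes of hippocampus over neocortex were -1.91 with kainate, -1.91 with nicotine and -1.69 with saline (SE 0.414, 0.378 and 0.378, limma adjusted p = 0.00112, 0.00043 and 0.00177).

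Gabra3 was likewise lower in the hippocampus in all 3 treatments. With kainate its signal was 262.9, 315.1, 26, 335.9 and 143.8 in hippocampus, against 571.9, 702.6, 678.5, 696.6 and 669.2 in neocortex. With nicotine it was 65.4 to 318.6 with a median of 232.8 in hippocampus, against 355.8 to 764.3 with a median of 587.3 in neocortex. Neither pair overlapped. In saline mice it was 37.1 to 381.7 with a median of 143.65 in hippocampus, against 239.5 to 668.3 with a median of 558.95 in neocortex, with an overlap through 1 high hippocampal and 1 low neocortical array. The log2 fold changes were -1.87 with kainate, -1.36 with nicotine and -1.72 with saline (SE 0.448, 0.409 and 0.409, limma adjusted p = 0.00314, 0.0259 and 0.00329). The nicotine call was lost in limma with the control-probe clusters as a block (-1.23, adjusted p = 0.089), without nicotine neocortex replicate 3 (adjusted p = 0.0657), and without nicotine hippocampus replicate 3 or 5 (adjusted p = 0.103 and 0.0516 in limma).

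Gabrb1, which encodes the beta-1 subunit, was higher in the hippocampus. With kainate its signal was 8186.9, 8046.2, 6549.2, 7018.1 and 7842.1 in hippocampus, against 6197.5, 5981, 5436, 4898.3 and 5318 in neocortex. With nicotine it was 6453.4 to 8792.9 with a median of 7555.3 in hippocampus, against 4870.4 to 5664.7 with a median of 4994.15 in neocortex. With saline it was 7222.7 to 8688.8 with a median of 8185.3 in hippocampus, against 4782 to 5870.3 with a median of 5587.55 in neocortex. Groups did not overlap in any treatment. The log2 fold changes were 0.43 with kainate, 0.58 with nicotine and 0.55 with saline (SE 0.085, 0.078 and 0.078, limma adjusted p = 0.000329, 8.58e-07 and 2.07e-06).

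In the reference annotation Gabrb1 lies on chromosome 5 in a cluster of subunit genes, in the order Gabrg1, Gabra2, Cox7b2, Gabra4, Gabrb1. Of its neighbours, Gabra2, the alpha-2 subunit gene, was called higher in the hippocampus only with nicotine, at 0.52 (SE 0.15, limma adjusted p = 0.0186), and it stood at 0.24 with kainate (adjusted p = 0.416) and 0.07 with saline (adjusted p = 0.861). Its signal with nicotine was 773.2 to 1336.9 with a median of 1090.25 in hippocampus, against 619.4 to 914.4 with a median of 729.95 in neocortex, and the groups overlapped. The test of whether the nicotine effect on Gabra2 differed between the regions gave 0.46 (SE 0.212, unadjusted p = 0.0379, limma adjusted p = 0.994), so its regional difference is not shown to depend on nicotine. The call was lost in limma with the control-probe clusters as a block (0.51, adjusted p = 0.0524), without nicotine neocortex replicate 1 (0.48, adjusted p = 0.0524), and without nicotine hippocampus replicate 1, 4 or 5 (adjusted p = 0.0551, 0.0643 and 0.0538 in limma). Gabrg1 was not called in any of the 3 treatments, with log2 fold changes of 0.17 with kainate, 0.08 with nicotine and -0.24 with saline.

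The upstream windows of Gabrb1, higher in the hippocampus, and Gabra3, lower there, are set beside each other as an example from each direction. The Gabrb1 window lies at chr5:71657671-71657920 on the plus strand and the Gabra3 window at chrX:72656920-72657169 on the minus strand of GRCm38.p6, each 250 bases long and read 5′ to 3′. Neither holds a GC box or the half-site, so neither line has capitals, and both genes have another RefSeq start whose window is not shown.
Gabrb1 upstream: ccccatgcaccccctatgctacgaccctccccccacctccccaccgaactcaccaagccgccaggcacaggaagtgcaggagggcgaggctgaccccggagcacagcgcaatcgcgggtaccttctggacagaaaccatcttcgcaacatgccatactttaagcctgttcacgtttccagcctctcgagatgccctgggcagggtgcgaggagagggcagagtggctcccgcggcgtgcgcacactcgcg
Gabra3 upstream: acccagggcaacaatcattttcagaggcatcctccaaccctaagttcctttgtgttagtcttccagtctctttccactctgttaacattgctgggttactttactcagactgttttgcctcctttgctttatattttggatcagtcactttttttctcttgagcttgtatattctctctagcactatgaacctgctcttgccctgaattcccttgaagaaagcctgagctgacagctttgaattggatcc
The Gabrb1 window has 64.4% and the Gabra3 window 42.4% G and C. No window of Gabrd was used here.

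Gabrb2, which encodes the beta-2 subunit, was called lower in the hippocampus with saline, at -0.72 (SE 0.212, limma adjusted p = 0.0224). Its signal was 422.1 to 984.9 with a median of 802.25 in hippocampus, against 889.5 to 1576.7 with a median of 1167.3 in neocortex, and the groups overlapped at their edges. It stood at -0.36 with kainate and -0.13 with nicotine (limma adjusted p = 0.379 and 0.836). The saline call was lost without saline hippocampus replicate 1 or 2 (limma adjusted p = 0.0628 and 0.0892) and without saline neocortex replicate 5 or 6 (limma adjusted p = 0.0615 and 0.064). The gamma-3 subunit Gabrg3 was not called in any treatment. The GABA-B subunit Gabbr1 was called lower in hippocampus than in neocortex only with kainate, at -0.34 (SE 0.088, limma adjusted p = 0.00658), and stood at 0.01 with nicotine and 0.02 with saline. The test of that change is the difference of kainate effects given above, which did not pass.

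Among glutamate receptors Grm8 was lower in the hippocampus in all 3 treatments, while none of the NMDA subunits was called in any. With kainate Grm8 had a signal of 444.9, 410.7, 437.6, 504.9 and 303.9 in hippocampus, against 613.8, 743.6, 759.8, 614.6 and 499.5 in neocortex. With saline it was 218.9 to 454.3 with a median of 360.6 in hippocampus, against 443.9 to 817.2 with a median of 491.1 in neocortex. In both treatments the groups met at their edges. With nicotine it was 274.7 to 419.1 with a median of 339.25 in hippocampus, against 507.8 to 797.1 with a median of 665.2 in neocortex, with no overlap. The log2 fold changes were -0.60 with kainate, -0.89 with nicotine and -0.64 with saline (SE 0.191, 0.174 and 0.174, limma adjusted p = 0.0297, 0.000391 and 0.0113).

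The Grm8 calls with kainate and saline depended on the fit. With the control-probe clusters as a block both were lost (-0.47 with kainate and -0.46 with saline, limma adjusted p = 0.0791 and 0.0633). The saline call was also lost when only the saline arrays were fitted, with the same log2 fold change of -0.64 (limma adjusted p = 0.0727). The kainate call was lost without kainate hippocampus replicate 2 or 5 (limma adjusted p = 0.0509 and 0.108) and without kainate neocortex replicate 2 or 3 (limma adjusted p = 0.0807 and 0.0826). Within cluster 1, with 4 kainate and 5 saline neocortical arrays, the differences were -0.59 with kainate and -0.66 with saline, against 1 and 2 hippocampal arrays. Within cluster 2, which holds 1 neocortical array of each treatment, they were -0.15 with kainate and -0.07 with saline. The 4 NMDA subunits spanned -0.59 to 0.41 with kainate, -0.13 to 0.18 with nicotine and -0.27 to 0.44 with saline. With kainate 1 of them, Grin2c at 0.41, had an unadjusted p under 0.05 (limma adjusted p = 0.129), and with nicotine and saline 0 did.

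The adrenergic receptors went in opposite directions. Adra2c, the alpha-2C receptor, which inhibits adenylyl cyclase and acts as an autoreceptor on noradrenergic terminals, was higher in the hippocampus. With kainate its signal was 1932.1, 2026.9, 1938.3, 1849.4 and 1833.8 in hippocampus, against 1169.8, 1142.6, 1247.5, 1181.8 and 1210.4 in neocortex. With saline it was 1441.3 to 2055.1 with a median of 1805.4 in hippocampus, against 857.6 to 1428.1 with a median of 1353.55 in neocortex. Both pairs were without overlap, by a wide gap with kainate and narrowly with saline. With nicotine it was 1405.1 to 2111.5 with a median of 1911.25 in hippocampus, against 972.2 to 1543.5 with a median of 1304.55 in neocortex, and 1 hippocampal array fell within the neocortical range. The log2 fold changes were 0.68 with kainate, 0.52 with nicotine and 0.49 with saline (SE 0.126, 0.115 and 0.115, limma adjusted p = 0.000161, 0.00172 and 0.00314).

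Adra1b, the alpha-1B receptor, which couples to phospholipase C, was lower in the hippocampus. With kainate its signal was 68.6, 126.6, 111.3, 101 and 103.4 in hippocampus, against 508.7, 418.3, 220.4, 130.2 and 535.6 in neocortex. In nicotine mice it was 76 to 150.6 with a median of 117 in hippocampus, against 123.4 to 364.3 with a median of 279.55 in neocortex. The kainate groups were narrowly apart and the nicotine groups overlapped, with 1 dim neocortical array in each. The saline signal was 67.9 to 295.9 with a median of 123.2 in hippocampus, against 292.3 to 486.7 with a median of 367.55 in neocortex, with 1 array of each region in the overlap. The log2 fold changes were -1.53 with kainate, -1.11 with nicotine and -1.40 with saline (SE 0.338, 0.309 and 0.309, limma adjusted p = 0.00133, 0.0149 and 0.00149). Most hippocampal signals lie near or below the filter, so the size of these folds depends on the added constant.

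**Figure D4:**
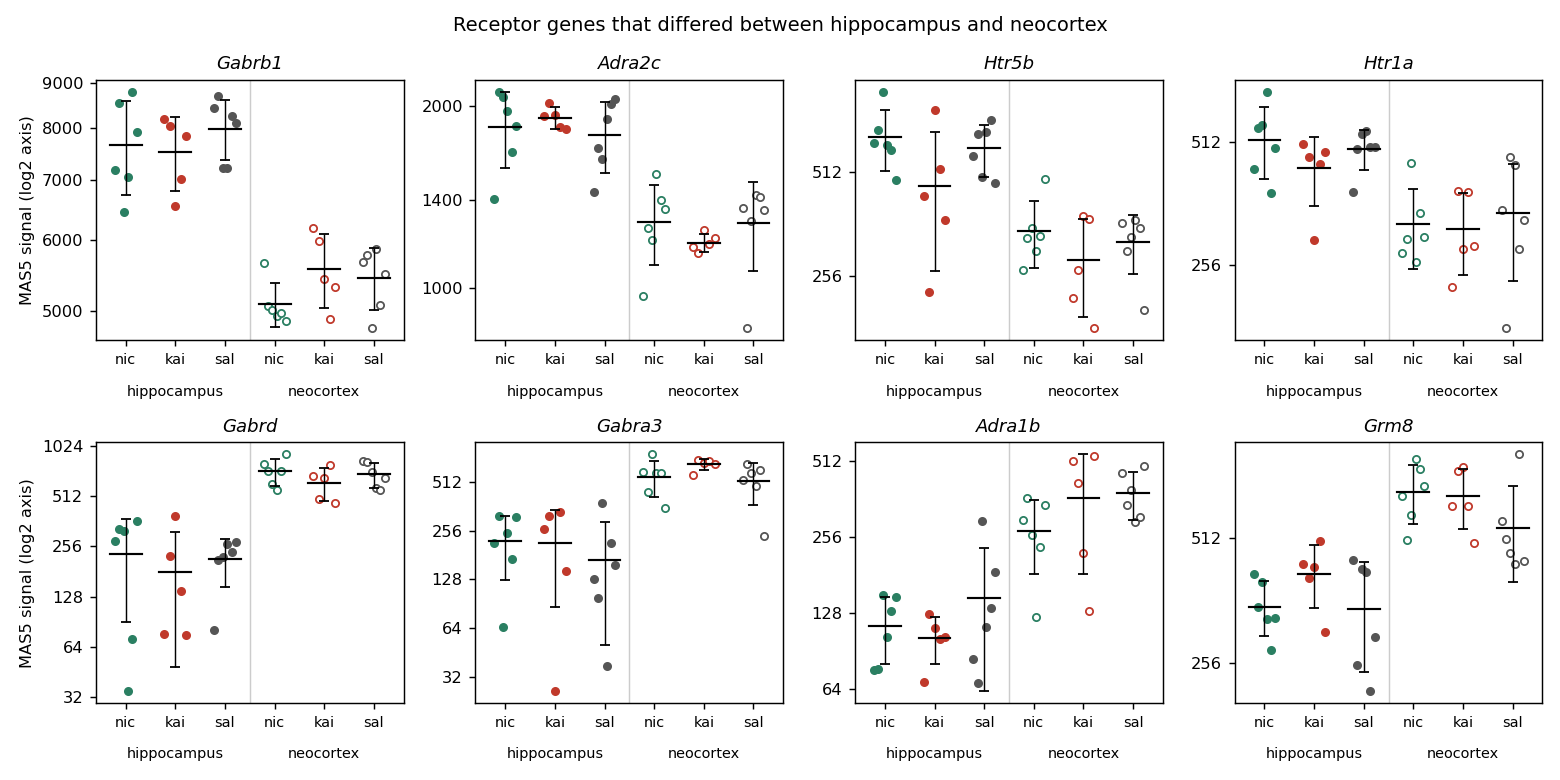
MAS5 signal (log axes) of 8 receptor genes called in at least 1 treatment, on each array of hippocampus (filled, left) and neocortex (open, right), for nicotine (nic), kainate (kai) and saline (sal), with the arithmetic mean and whiskers of 1 SD. The upper row is higher in the hippocampus and the lower row lower, and for Gabrb1 and Gabrd no hippocampal array of a treatment overlaps its neocortical arrays.

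Of the 8 tested serotonin receptor genes, Htr5b and Htr1a were the only ones called in any treatment, both higher in the hippocampus. Htr5b encodes a receptor of the 5-HT5 class found in rodents, and Htr1a the inhibitory 5-HT1A receptor, well known from hippocampal pyramidal cells and as an autoreceptor of serotonin neurons. With nicotine Htr5b had a signal of 485.9 to 876.6 with a median of 617.85 in hippocampus, against 266.9 to 490.1 with a median of 331.6 in neocortex. The saline signal was 474.3 to 727.2 with a median of 614.2 in hippocampus, against 203.4 to 372.8 with a median of 341.9 in neocortex. The nicotine groups overlapped by 1 array each, and the saline groups did not overlap. The log2 fold change was 0.87 with nicotine and 0.88 with saline (SE 0.212 each, limma adjusted p = 0.00439 and 0.00404).

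With kainate Htr5b had a signal of 435, 229.3, 774.2, 522.7 and 372 in hippocampus, against 220.6, 265.5, 381.2, 375.2 and 180 in neocortex. These groups overlapped, and the difference of 0.63 missed the threshold (SE 0.233, limma adjusted p = 0.0688). Htr1a was called with nicotine, with a signal of 384.3 to 678 and a median of 521.75 in hippocampus, against 260.1 to 454.8 and a median of 297.5 in neocortex. Its log2 fold change there was 0.66 (SE 0.189, limma adjusted p = 0.0177), and the call was lost without nicotine hippocampus replicate 4 (adjusted p = 0.0596). Htr1a stood at 0.48 with kainate (adjusted p = 0.136 in limma) and 0.55 with saline (adjusted p = 0.0553), both short of the threshold.

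The other 6 tested serotonin receptor genes, Htr1b, Htr1d, Htr3a, Htr4, Htr5a and Htr7, were not called in any of the 3 treatments, nor did any of them reach an unadjusted p under 0.05 in limma. With saline the largest of their differences was that of Htr1b at 0.44 (SE 0.349, limma adjusted p = 0.53), and the others lay between -0.21 and 0.15. Htr4 was the only receptor gene with more than 1 tested probe set. Its tested probe sets differed in sign in some comparisons, for example in the hippocampus with kainate (0.13 and -0.27) and with nicotine (0.08 and -0.34). Neither of them was called in any comparison. Chrm1, Drd2, Drd4, Glra1 and Oprl1 were called in no regional comparison, with saline differences of 0.01, -0.13, -0.29, -0.41 and -0.07.

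**Figure D5:**
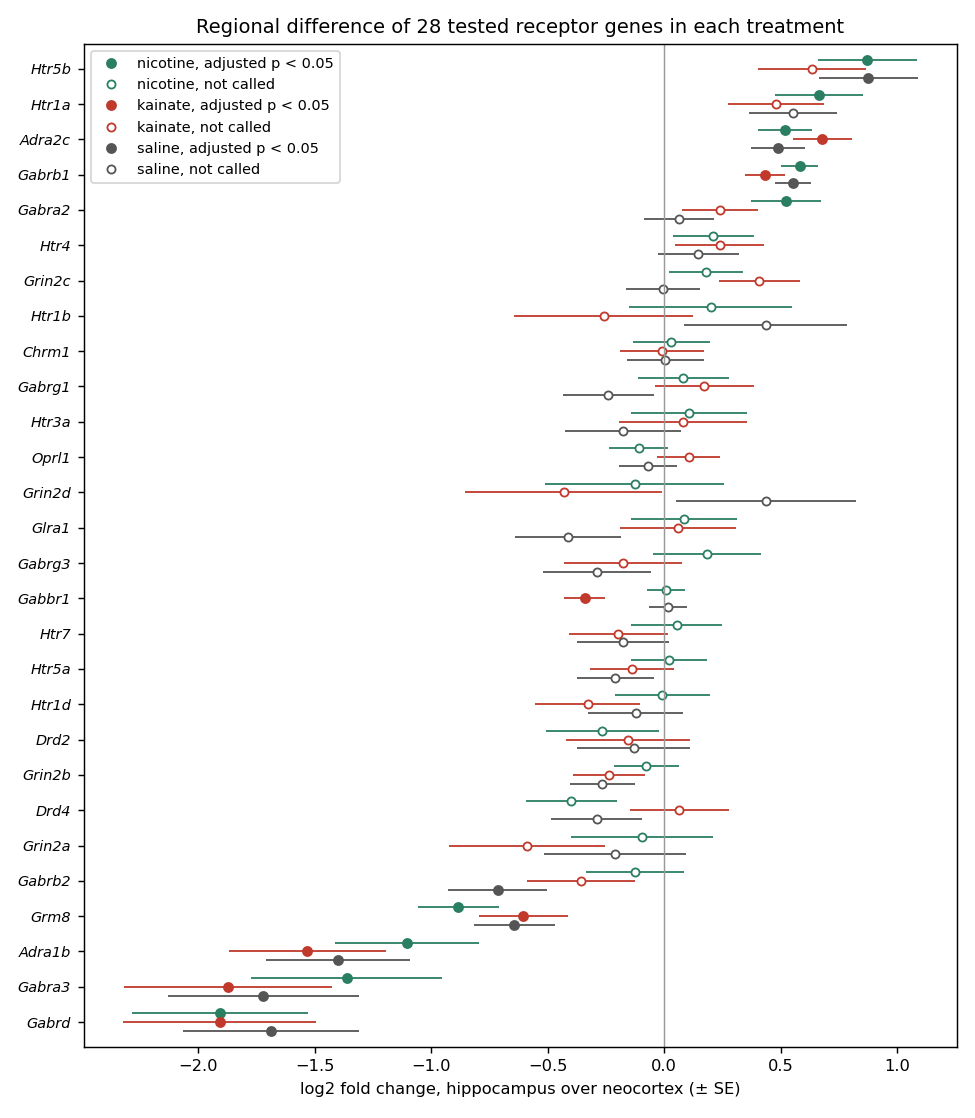
Log2 fold change of 28 tested receptor genes, hippocampus over neocortex, in nicotine, kainate and saline mice, with whiskers of 1 SE. Filled points mark an adjusted p under 0.05 in limma, and Gabrd, Gabra3, Adra1b and Grm8 at the bottom and Gabrb1 and Adra2c near the top are filled in all 3 treatments.

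Markers of other cells and of neighbouring tissue also differed between the dissected regions. With saline the sum of 4 choroid plexus markers ran from 968 to 9613 in hippocampus and from 377.9 to 2071 in neocortex, and both tested striatal markers were lower in hippocampus, with sums over 3 markers of 2920 to 4164 in hippocampus and 3656 to 5331 in neocortex. Of 10 interneuron markers 1 was higher and 3 lower in saline hippocampus, and of 5 excitatory neuron markers 2 were higher and 3 lower. Higher in saline hippocampus were also 2 of 7 astrocyte and 2 of 4 oligodendrocyte markers, while 0 of 10 microglia markers were called by limma or had an unadjusted p under 0.05. With kainate 9 of 10 microglia, 3 of 7 astrocyte and 4 of 4 oligodendrocyte markers were higher in the hippocampus, and 5 of 10 interneuron markers were lower and 1 higher. The sums of the 11 microglia markers were then 45190 to 72170 in hippocampus and 18950 to 23540 in neocortex. The part of these differences in the receptor results was not tested.

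Neither drug was shown to change a receptor gene differently in the 2 regions by the test of that difference. For kainate 0 of 28 were called by limma, where 0.794% of all probe sets were called, and 1 had an unadjusted p under 0.05, Gabbr1 as given above. For nicotine 0 of 28 were called, where 0% of all probe sets were called, and 1 had an unadjusted p under 0.05, Gabra2. Over all probe sets 8.98% for kainate and 3.77% for nicotine had such a p. The median SE of these differences over the receptor genes was 0.29 for kainate and 0.277 for nicotine. The differences ran from -0.87 to 0.47 for kainate and from -0.56 to 0.59 for nicotine without a call. Differences of small size could thus not have been detected, and larger ones could have been missed.

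Genes that work with these receptors were counted from 8 lists of the same pathways. Over these lists 8 of 110 tested genes were called with kainate in the hippocampus, where 2.79% of all probe sets were called, 1.84% higher and 0.955% lower. With kainate in the hippocampus 0 of 14 tested scaffold genes of glutamate receptors and 0 of 13 anchoring and trafficking genes of GABA-A and glycine receptors were called by limma. Of these, 5 and 3 had an unadjusted p under 0.05, against 14.2% of all probe sets. Of 11 tested genes of GABA and glutamate synthesis and transport 2 fell, the vesicular GABA transporter Slc32a1 and the neuronal glutamate transporter Slc1a1 (log2 fold changes -0.43 and -0.50, limma adjusted p = 0.0273 and 0.0303). Of 5 tested genes of opioid peptides and their processing 1 rose, Penk, which encodes the enkephalin precursor, by 0.87 (limma adjusted p = 0.00184).

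Among 22 tested G-protein genes Gng3, a gamma subunit of neurons, fell by 0.33 with kainate in the hippocampus (adjusted p = 0.0184 in limma). Of 21 tested potassium channel and effector genes, the protein kinase C gene Prkcb fell by 0.41 (limma adjusted p = 0.00142) and the adenylyl cyclase gene Adcy7 rose by 1.43 (limma adjusted p = 0.0377). Of 14 tested regulators Rgs10, which is known from microglia as well as neurons, rose by 0.73 (limma adjusted p = 0.00164), and of 11 tested genes of monoamine, acetylcholine and adenosine turnover Adk, adenosine kinase of astrocytes, rose by 0.63 (limma adjusted p = 0.00273). In the other drug comparisons limma called 0 of the 110 or 111 tested genes of these 8 lists, with 5 at an unadjusted p under 0.05 for kainate in the neocortex, 8 for nicotine in the hippocampus and 6 for nicotine in the neocortex. Over all probe sets 5.57%, 5.8% and 9.6% had such a p in these comparisons.

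Between regions of saline mice 24 of 111 genes of these lists were called, where 10.5% of all probe sets were called, 5.36% higher and 5.19% lower. The scaffold genes went both ways, with 3 of 14 higher and 5 lower in the hippocampus. Homer3 was higher by 1.76 on the log2 scale and Homer1 lower, at -1.19 (limma adjusted p = 5.42e-06 and 0.000178), and the calcium/calmodulin kinase subunit genes Camk2b and Camk2a stood at 0.67 and -0.69 (adjusted p = 1.16e-08 and 0.044 in limma). Of 15 regulators of G-protein signalling 1 was higher, Rgs14 at 0.87, and 2 were lower, Rgs4 at -1.94 and Rgs6 at -1.56. Among 21 effectors 2 were higher and 4 lower, among the lower Kcnj9, a subunit of the potassium channels that GABA-B and other inhibitory receptors open, at -0.995 (limma adjusted p = 3.21e-07). Of 13 GABA-A and glycine receptor partners 1 was lower, the chloride extruder Slc12a5 at -0.61 (limma adjusted p = 0.027).

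The 3 HtrA protease genes gave 1 call. Htra1 was higher in saline hippocampus, with a signal of 4996.2 to 5981.7 and a median of 5416.85, against 3645.8 to 4716.3 and a median of 4412.2 in saline neocortex. The groups did not overlap, and the log2 fold change was 0.34 (SE 0.098, limma adjusted p = 0.0165), lost without saline neocortex replicate 6 (adjusted p = 0.0534). Htra2 was called in no comparison, and Htra3 lay below the filter.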

How the data were processed

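RNA from the hippocampus and neocortex of each mouse (12 micrograms of total RNA, per the labels' protocols) was hybridised to 1-colour Affymetrix arrays. The deposited intensity values are MAS5 signals, per the submitters' processing notes, with no version given there, and the authors had scaled every array to a common target (trimmed means 1000.5 to 1000.6). No detection calls were used here, so a low signal cannot be separated into present and absent. Of 12488 probe sets, 66 controls were left out of all tests. By the platform annotation 10833 of the remaining 12422 carry 1 gene symbol, 396 several and 1193 none, and only those with 1 were named. The reference gene table matched 10817 of the named probe sets.

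Signals were tested as log2(signal + 16), in limma 3.58.1 (R 4.3.3) with lmFit and eBayes with a mean-variance trend, on the probe sets at or above the 30th percentile of mean level. Drug comparisons used the 17 arrays of a region, and regional comparisons and differences of drug effects all 34 arrays. The same code was tested on simulated data first. No 2 arrays held identical values, and correlations between arrays ran from 0.916 to 0.969. Nothing in the labels ties a hippocampal to a neocortical array of the same mouse. Replicate numbers were checked by correlating deviations from group means. Over 17 pairs of regions r ran from -0.137 to 0.147, with 2 pairs over 0.1, so the numbers were not taken to pair the regions of a mouse. Over 22 pairs of drug and saline arrays r ran from -0.172 to 0.282, with 9 over 0.1. Replicate 1 of hippocampus also lay in control-probe cluster 1 in every treatment. Arrays of the same number may thus share something within a region, and its source was not tested. The main fits took no account of the numbers, and a replicate block was run as an alternative. In fits over both regions that block joined the regions by treatment and number. Sharing of numbers between treatments within a region was therefore blocked only in the drug comparisons. With 5 or 6 arrays a group, the median SE over the receptor genes was 0.179 to 0.204 in the drug comparisons on the log2 scale, and with kainate in the hippocampus single genes ranged from 0.089 to 0.543.

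The members and the gene lists were chosen with earlier results of these data known. Genes named with values are the members called in any comparison, the 2 members with the largest difference in each drug comparison, and genes of the lists that were called, and exceptions are marked as such. Upstream windows are RefSeq sequences of GRCm38.p6, searched on both strands. The alternatives were pseudocounts of 1 and 64, no filter or a 50th percentile filter, median centring, quantile normalization, array weights, a replicate block, the mean of all probe sets of a gene, clusters of arrays by control probe sets as a block, other sets of arrays in the fit, and each array left out in turn. Figures were drawn with matplotlib 3.10.9 (Python 3.11.15).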

Additional observations from a re-analysis of the deposited data

Results flagged for a closer look

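In groups of 5 or 6 arrays, an array was singled out where its gap to the nearest other array, over the range of the group, passed Dixon's 95% critical value. Chance alone does this in about 1 of 20 groups, and it happened in 11 of 96 sets of 16 members and 6 groups. No explanation was tested for any of them.

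In the hippocampus, Gabbr1 on nicotine replicate 6 had a signal of 15921.5, above the others at 12037.4 to 12990.4. Htr1a on kainate replicate 3 had 295, below the others at 452 to 504.6, and on saline replicate 1 it had 386.5, below 490.8 to 541.8. The same saline replicate 1 had a Gabrd signal of 80.8, below 212.7 to 273.1. Gabra2 on saline replicate 2 had 525.5, below 860.6 to 1078.

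In the neocortex, Glra1 on nicotine replicate 6 had a signal of 740, above the others at 449.6 to 523.4, and Gabrb1 on nicotine replicate 1 had 5664.7, above 4870.4 to 5070.5. Gabra3 on kainate replicate 1 had 571.9, below 669.2 to 702.6, and on saline replicate 6 it had 239.5, below 488.7 to 668.3. That saline replicate 6 also had the stray Htr5b signal, 203.4 against 302.9 to 372.8. Adra2c on saline replicate 2 had 857.6, below 1289.9 to 1428.1.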

How the results depend on the processing

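The 5 counts of called receptor genes that were 0 stayed at 0 under every alternative run, and the count of 1 for kainate in the hippocampus stayed at 1. Regional counts with each array of the 2 groups left out in turn were 6 to 9 with kainate, 7 to 9 with nicotine and 7 to 9 with saline. One count moved by over 1.5 times: with the 50th percentile filter 4 receptor genes were called for hippocampus over neocortex with kainate, in place of 7, because that filter leaves Adra1b, Gabra3 and Gabrd untested. For single members 717 of 739 alternative values kept their direction and their side of the threshold, 22 lost a call and 0 reversed. Alternatives that left a member untested are not among the 739. These include the regional comparisons of Adra1b, Gabra3 and Gabrd with the 50th percentile filter, where their calls could not be made. For kainate in the neocortex Oprk1 was tested in only 5 of the fits with an array left out. The lost calls, all regional, were those of Grm8, Gabra2, Gabra3, Gabrb2, Htr1a and Htra1 given with their genes, and their cause was not tested. The kainate effect on Gabbr1 in the hippocampus ran from -0.54 under median centring to -0.33 under quantile normalization, with limma adjusted p from 0.00128 to 0.0113, and from 0.00309 to 0.03 with each of 11 arrays left out.

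The replicate block joined arrays of the same number within a region in the drug comparisons. In the comparisons over both regions it joined the hippocampal and neocortical arrays of the same treatment and number. Counts of called receptor genes stayed the same in all 9 comparisons, and Gabbr1 stood at -0.41 (limma adjusted p = 0.00382). For kainate in the hippocampus the block raised the calls over all probe sets to 357, in place of 243. Median centring gave 443 there, and for the regional comparison with kainate it gave 405 higher and 673 lower in place of 592 and 541. With 5 or 6 arrays a group and a median SE near 0.2, changes of a size like that of Gabbr1 could be missed in many receptor genes. For kainate over saline in the hippocampus the SE of Gabbr1, 0.089, was at the lowest of the 27 tested, where the median was 0.204. Gabrg1 at 0.48, Glra1 at 0.47 and Htr5b at -0.44 differed by more than Gabbr1 and were not called (SE 0.184, 0.274 and 0.225). Such changes were not detectable in dim hippocampal genes such as Gabrd or Gabra3 (SE 0.517 and 0.543 for kainate over saline).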

Other observations

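The 10 receptor genes below the filter in every fit had these signals over all 34 arrays. Among GABA-A type subunits, Gabra6, known from cerebellar granule cells, ran from 14.3 to 225.2 with a median of 82.3, and the rho subunits Gabrr1 and Gabrr2, known from the retina, had medians of 34.95 and 54.5. The muscarinic receptor gene Chrm4 had a median of 87.4 and the dopamine receptor gene Drd3 one of 83.6, although both reached over 240 on single arrays. The serotonin receptor genes Htr1f, Htr2b and Htr2c had medians of 53.25, 80.65 and 76.4. The delta and mu opioid receptor genes Oprd1 and Oprm1 had medians of 83.6 and 19.25. Without detection calls these values do not say whether the transcripts were present.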
